A study of Mus musculus with 4 samples.

Results

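The genes described here encode proteins that write, read or erase chemical marks on histones, or that use ATP to slide, evict or exchange nucleosomes. They were chosen by name: lysine demethylases (Kdm), lysine methyltransferases (Kmt) and SET domain proteins (Setd), histone deacetylases (Hdac) and sirtuins (Sirt), bromodomain proteins (Brd), chromodomain helicases (Chd) and SWI/SNF-related proteins (Smarca to Smarce), each with at least 1 transcript annotated as protein coding. Kdm5c and Kdm5d stood outside the selection. This gave 81 of the 55536 genes in the tables and 81 of the 22028 protein-coding genes. The name rule itself used no measured value, but it was set with earlier results of these data known. Brd3os, which matched the name pattern through its host locus, is counted among the 81 and is named below wherever it sets a value.

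The data came from polyA-selected RNA sequencing of bone marrow-derived macrophages, primary phagocytes of C57BL/6J mice that arise from marrow progenitors, harvested after 60 minutes with a stimulus at 100 ng/mL. One label field names the stimulus lipid A and another lipoprotein A, so it is called the stimulus here. All 4 libraries belong to 1 group of 4 biological replicates with 1 technical replicate each, they carry the same donor label, and sex and age were not collected. Unstimulated cells were not analysed here, so the values are levels in stimulated cells and no response to the stimulus can be read from them. Nothing says whether the replicates came from separate cultures or animals. P-values therefore describe variation among these 4 libraries alone, part or all of which may be technical.

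Acetylation of histone tails loosens their hold on DNA and is bound by bromodomains. Deacetylases remove it, and lysine methylation, depending on the residue, marks active promoters, active enhancers, gene bodies or silenced chromatin. In macrophages these enzymes are known for setting which inflammatory genes open quickly after a microbial signal: BET bromodomain proteins recruit elongation factors, SWI/SNF remodellers clear nucleosomes, and the demethylase Kdm6b is known as a gene that microbial stimuli induce.

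Summed expected counts over genes ran from 26917324 to 39438414 reads per library. All 10 macrophage markers were at 1 TPM (a level scaled for transcript length and library size) or more in every library, with Lyz2 at 19685 ± 6749 TPM (SD, n = 4) and Adgre1 at 564 ± 61.1 TPM. B cell markers summed to 0.98 to 2.91 TPM and T and NK cell markers to 0.39 to 0.97 TPM. The libraries differed in other lists. Summed over 20 proliferation genes, replicates 1 to 4 had 1344, 313, 644 and 390 TPM. Summed over 16 interferon-stimulated genes they had 1569, 4636, 1423 and 4482 TPM, and over 11 neutrophil markers 225, 126, 749 and 79.2 TPM. Ribosomal RNA genes, nuclear and mitochondrial together, took 3.43% to 12.4% of the counts.

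Most of the histone modifiers and remodellers were expressed in these macrophages. Of the 81 genes, 73 (90.1%) reached 1 TPM in every library, against 43.8% of all protein-coding genes. Their median level was 12.5 TPM, against 0.39 TPM over all protein-coding genes. Among genes that reached 1 TPM in every library the median was 14.2 TPM for the 73 and 17.8 TPM for all protein-coding genes, so at a like detection they were not above other genes. In these bulk samples fewer expressing cells and less RNA per cell cannot be told apart. Summed over the 81 genes, the level was 1836 ± 43.7 TPM (SD, n = 4).

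By mean level, 47 genes had a mean of at least 10 TPM, 8 had at least 50 TPM and 3 had at least 100 TPM. The 3 were Brd2 at 242 ± 43.1 TPM, Sirt2 at 120 ± 28.0 TPM and Chd4 at 118 ± 12.3 TPM. The libraries of Brd2 lay above those of every other gene, while those of Sirt2 and Chd4 overlapped. At the other end, 6 genes stayed below 1 TPM in every library. They were Kdm4d, Hdac11, Brd3os, Chd5, Smarca1 and Smarcd3. Kdm8 and Setd4 crossed 1 TPM between libraries.

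**Figure D1:**
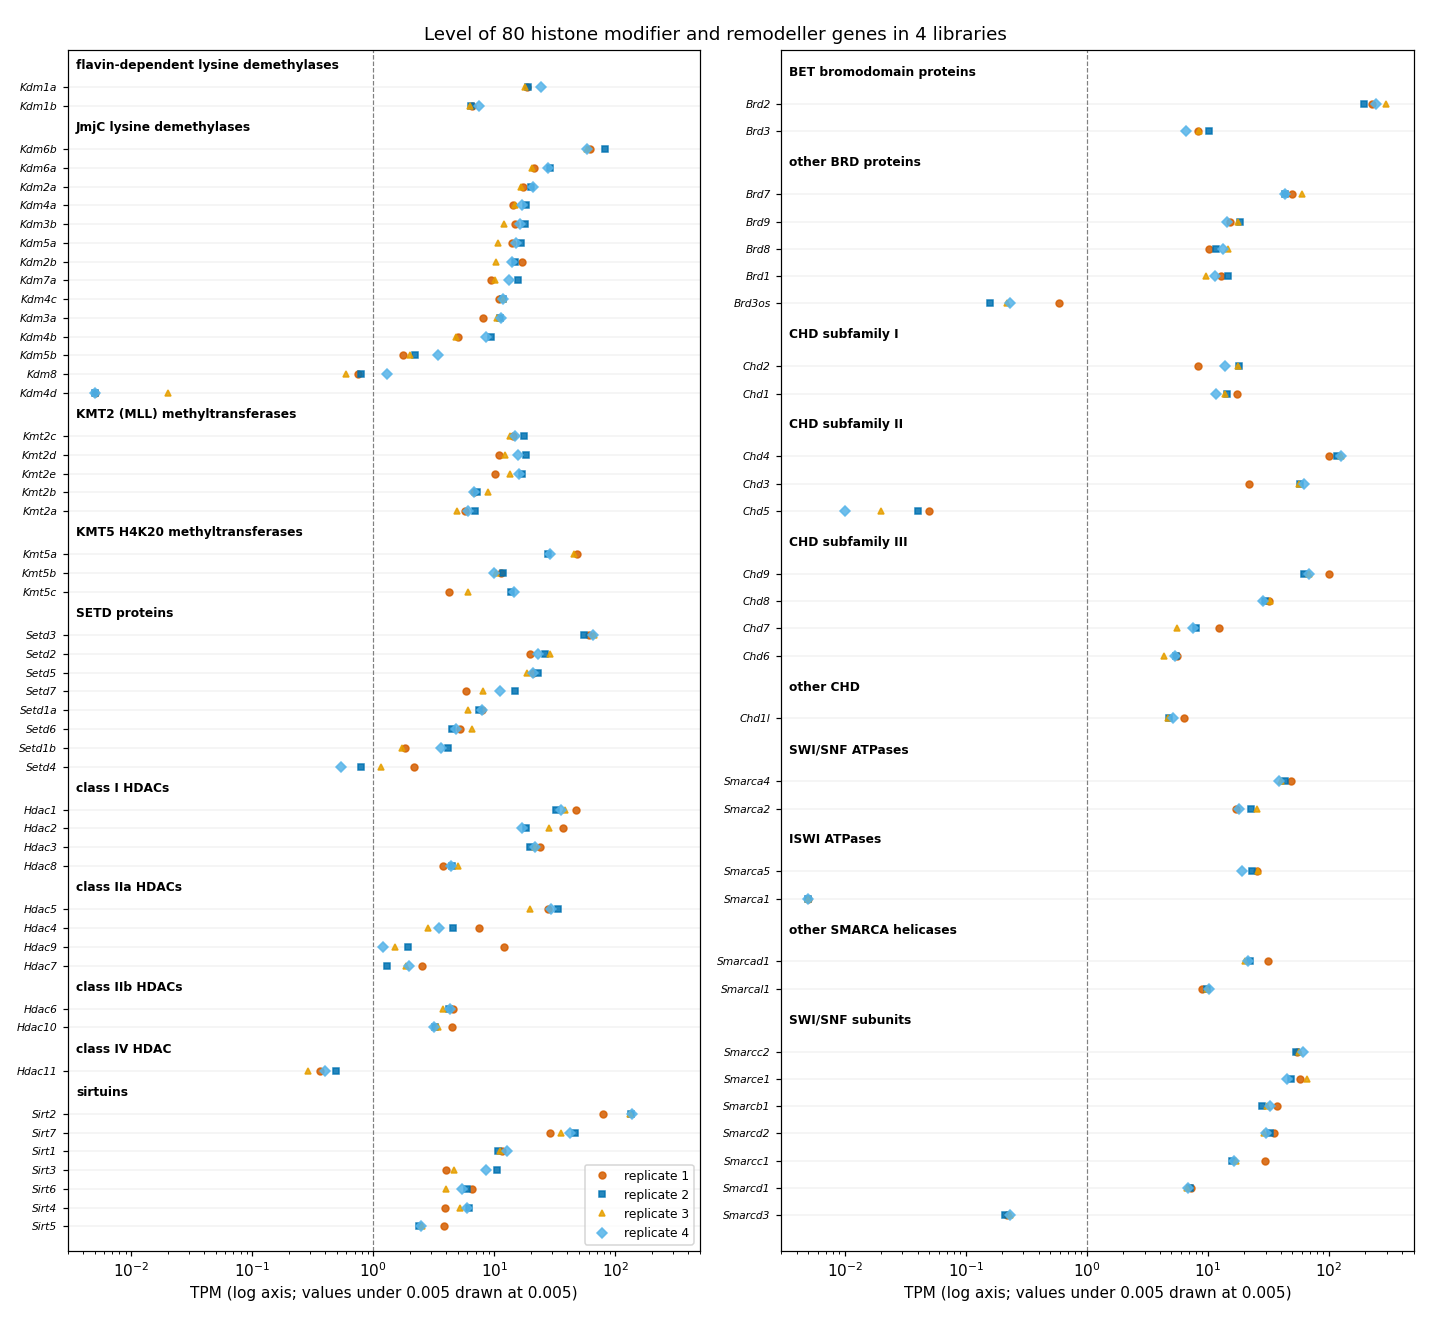
TPM of 80 of the 81 genes on a log axis, grouped by enzyme class, with 1 symbol per library and a dashed line at 1 TPM. Brd2 lies furthest right at 196 to 299 TPM, 6 genes lie left of the line in all 4 libraries, and in most rows the 4 symbols lie close together.

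Among the erasers of lysine methylation, Kdm6b was the most abundant. This JmjC enzyme removes the repressive methyl groups of histone H3 lysine 27. Replicates 1 to 4 measured 61.5, 81.9, 58.8 and 58.7 TPM, a mean of 65.2 ± 11.2 TPM (chr11:69398508-69413675, mm10, minus strand). Replicate 2 was the high library and the other 3 lay within 3 TPM of one another. Its X-linked paralog Kdm6a, which acts on the same residue, had 21.1, 28.6, 20.3 and 27.6 TPM. Kdm6b exceeded Kdm6a in all 4 libraries, with a mean log2 ratio of 1.42 ± 0.22, or 2.67-fold. Kdm6b alone made up 30.8% ± 2.7 of the TPM summed over the 14 JmjC demethylases.

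The next JmjC demethylases lay close together. Kdm2a, a CpG-binding eraser of H3 lysine 36 methylation, had 18.7 ± 2.00 TPM, and Kdm4a, an eraser of H3 lysine 9 and lysine 36 trimethylation, had 16.1 ± 1.85 TPM. Kdm3b, Kdm5a, Kdm2b, Kdm7a, Kdm4c and Kdm3a followed with means from 15.3 down to 10.3 TPM, and most neighbours in that order differed by less than their SDs. Kdm5a, an eraser of H3 lysine 4 methylation, exceeded Kdm5b in every library, with 14.2 ± 2.49 against 2.35 ± 0.75 TPM. Kdm4d, a testis-enriched member of its family, had 1 read in replicate 3 and none elsewhere. The flavin-dependent pair, which erases H3 lysine 4 mono- and dimethylation, was led by Kdm1a with 20.0 ± 2.96 TPM against 6.64 ± 0.52 TPM for Kdm1b. None of the 15 demethylases tested was called variable between libraries by the rule given below. Of 8 other JmjC proteins outside the name pattern, 7 were at 1 TPM or more in every library, led by Jmjd1c at 38.6 ± 5.39 TPM and Phf8 at 14.4 ± 2.40 TPM.

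The KMT2 or MLL enzymes, which methylate H3 lysine 4 at promoters and enhancers, were of similar level. Kmt2c had 14.4, 17.5, 13.5 and 14.8 TPM and Kmt2d had 10.8, 18.3, 12.2 and 15.6 TPM, so these 2 enhancer enzymes changed order between libraries. Kmt2e, a family member without known methyltransferase activity, had 14.2 ± 3.06 TPM. The promoter enzymes Kmt2b and Kmt2a were lower at 7.41 ± 0.96 and 5.90 ± 0.84 TPM. The SET1 enzymes of the same pathway were at 7.31 ± 0.88 TPM for Setd1a and 2.84 ± 1.23 TPM for Setd1b. All 9 shared cofactors of these complexes were at 1 TPM or more in every library, led by Dpy30 at 39.4 ± 14.8 TPM and Hcfc1 at 29.2 ± 3.45 TPM.

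Setd3 led the 8 SETD proteins with 60.9, 55.1, 67.2 and 65.6 TPM. It is known as an actin histidine methyltransferase, besides the SET domain that gave it its name. Setd2, the H3 lysine 36 trimethylase, followed with 24.3 ± 4.07 TPM and Setd5 with 20.8 ± 1.83 TPM. Setd7, a monomethylase of H3 lysine 4 and of other proteins, had 9.99 ± 3.98 TPM. Among the H4 lysine 20 methyltransferases, the monomethylase Kmt5a was highest. Its 48.3, 27.9, 45.2 and 28.9 TPM put replicates 1 and 3 above replicates 2 and 4. Of 15 histone methyltransferases outside the name pattern, 14 were at 1 TPM or more in every library, led by Ehmt2 at 48.9 ± 8.08 TPM and Nsd3 at 30.8 ± 5.24 TPM.

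Class I deacetylases, the catalytic subunits of the nuclear corepressor complexes, were the best represented HDACs. Hdac1 had 46.9, 32.1, 38.2 and 35.2 TPM and Hdac2 had 36.7, 18.3, 28.3 and 17.0 TPM. Both were highest in replicate 1, and Hdac1 exceeded Hdac2 in every library by 0.66 ± 0.32 on the log2 scale. Hdac3, the enzyme of the NCoR and SMRT complexes, was steadier at 23.8, 19.6, 21.7 and 21.6 TPM. Hdac8 had 4.40 ± 0.52 TPM. Hdac5 made up most of the class IIa group, whose members shuttle between nucleus and cytoplasm, with 27.5 ± 5.80 TPM. Hdac4 and Hdac7 had means of 4.57 and 1.92 TPM. The Hdac9 mean of 4.14 TPM rested on replicate 1, without which it was 1.55 TPM, a value added after seeing the data. The class IIb enzymes Hdac6, a tubulin deacetylase, and Hdac10, a polyamine deacetylase, lay at 4.22 ± 0.31 and 3.59 ± 0.60 TPM, and neither passed the test against counting noise described below. Hdac11, the only class IV enzyme, was at 0.29 to 0.49 TPM.

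The 21 corepressor subunits that carry these deacetylases had a median of 29.9 TPM, and the 4 class I enzymes a median of 23.4 TPM. Sin3b and Mbd2 led with means of 102 ± 11.2 TPM and 87.9 TPM (77.0 to 104 TPM for Mbd2), and 20 of the 21 were at 1 TPM or more in every library. The opposing acetyltransferases were all detected: 10 of 10 reached 1 TPM in every library, led by Hat1 with 77.8, 35.5, 56.7 and 32.6 TPM in replicates 1 to 4 and Kat5 at 32.8 ± 8.35 TPM.

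Sirtuins are deacylases that consume NAD. Sirt2, mostly cytoplasmic, took 62.7% ± 4.3 of the TPM summed over the 7 sirtuins. It had 78.4, 133, 132 and 137 TPM, with replicate 1 low and the other 3 within 5 TPM of one another (chr7:28766735-28788661, mm10, plus strand). The nucleolar Sirt7 followed at 28.6, 46.4, 35.7 and 42.5 TPM, again lowest in replicate 1. The best studied nuclear sirtuin, Sirt1, had 11.5 ± 0.77 TPM, and Sirt2 exceeded it by 3.34 ± 0.39 on the log2 scale. The mitochondrial Sirt3, Sirt4 and Sirt5 had 6.92 ± 3.11, 5.32 ± 1.02 and 2.81 ± 0.68 TPM.

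The BET proteins bind acetylated histones with paired bromodomains. Brd2 held 83.6% ± 2.3 of their summed TPM, with 229, 196, 299 and 247 TPM in replicates 1 to 4 (chr17:34112023-34122634, mm10, minus strand). Replicate 3 was the highest and replicate 2 the lowest. Brd3 had 8.27, 10.2, 8.52 and 6.66 TPM, a mean of 8.41 ± 1.45 TPM. Brd2 exceeded Brd3 in all 4 libraries, with a mean log2 ratio of 4.83 ± 0.43, or 28.5-fold. Cdk9, the kinase of the elongation factor P-TEFb, stood at 66.9 ± 6.87 TPM, and all 9 elongation factors looked at reached 1 TPM in every library. Ell2 led them at 76.5 ± 41.8 TPM, with 137 TPM in replicate 1 and 47.0 to 71.3 TPM in the others.

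Of the other bromodomain genes, the PBAF subunit Brd7 had 49.0 ± 7.50 TPM and the non-canonical BAF subunit Brd9 had 16.4 ± 1.89 TPM, with Brd7 higher in all 4 libraries. Brd8, a subunit of the NuA4 acetyltransferase complex, and Brd1, which serves HBO1 and MOZ acetyltransferases, lay at 12.5 ± 1.86 and 12.2 ± 2.18 TPM. Brd3os was at 0.16 to 0.59 TPM and is not known to carry a bromodomain.

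Chd4, the main ATPase of the NuRD complex that couples remodelling to deacetylation, was the most abundant remodeller, with 101, 117, 127 and 127 TPM (chr6:125095981-125130591, mm10, plus strand). Chd3, the alternative NuRD ATPase, had 22.1, 57.6, 56.9 and 62.6 TPM, and replicate 1 stood apart as the low library. Chd5, a neural NuRD ATPase, had 0.01 to 0.05 TPM. Chd1 and Chd2, which travel with transcribing polymerase, had 14.3 ± 2.33 and 14.5 ± 4.51 TPM and changed order in replicate 1. Of the Chd2 TPM, 50.2% to 58.3% lay on protein-coding transcripts and 41.5% ± 4.0 on nonsense-mediated decay transcripts. Counting protein-coding transcripts only, Chd1 stood at 14.2 ± 2.33 TPM and Chd2 at 7.8 ± 2.1 TPM. Chd8 exceeded Chd7 in all 4 libraries, at 30.8 ± 2.08 against 8.33 ± 2.86 TPM, and Chd6 had 5.17 ± 0.56 TPM. Of the Chd7 TPM, 50.9% lay on the 582-base coding transcript Chd7-208, on 18 to 37 reads per library. Coding Chd8 transcripts of 415 and 360 bases held 18.6% and 18.1% of its TPM, on 12 to 25 and 9 to 19 reads. The 8509-base Chd8 transcript stood at 7.4 ± 0.95 TPM and the 10216-base Chd7 transcript at 3.5 ± 1.04 TPM. Chd1l, a remodeller activated by poly(ADP-ribose), had 5.24 ± 0.79 TPM. Chd9 was listed at 74.9 ± 17.4 TPM, but most of that came from 1 short non-coding transcript described below.

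The 2 alternative SWI/SNF ATPases were both present. Smarca4, known as BRG1, had 48.8, 43.5, 40.3 and 38.6 TPM, and Smarca2, known as BRM, had 17.1, 22.7, 25.5 and 18.1 TPM. Smarca4 was higher in each library and made up 67.3% ± 5.3 of the pair. Of the 2 ISWI ATPases, Smarca5 had 23.4 ± 3.14 TPM. Its paralog Smarca1 was listed at 0 with no read in any of the 4 libraries, which allows up to 3 reads per library on counting error alone. The DNA end resection helicase Smarcad1 and the annealing helicase Smarcal1 had 24.0 ± 5.09 and 9.69 ± 0.57 TPM. Coding Smarcad1 transcripts of 602 and 600 bases held 26.9% ± 7.1 and 26.3% ± 5.2, on 30 to 68 and 38 to 54 reads per library. The 5168-base coding transcript held 27.1% ± 5.1, or 6.48 ± 1.67 TPM, on 570 to 803 reads. The 3059-base coding transcript of Smarcal1 stood at 9.0 ± 0.76 TPM.

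Core SWI/SNF subunits were led by Smarcc2 with 54.5, 53.1, 56.7 and 61.0 TPM and Smarce1 with 57.8, 48.8, 66.2 and 45.0 TPM. Smarcb1 had 32.3 ± 3.83 TPM and the myeloid-associated subunit Smarcd2 had 31.7 ± 2.62 TPM. The Smarcd paralogs, of which a complex holds 1, followed the order Smarcd2, Smarcd1, Smarcd3 in every library. Smarcd2 exceeded Smarcd1 by 4.48-fold, and Smarcd3, the muscle-associated paralog, had 0.21 to 0.23 TPM, all of it on transcripts annotated as non-coding. Smarcc2 exceeded Smarcc1 by 2.94-fold. Of 20 BAF and PBAF subunits outside the name pattern, 13 were at 1 TPM or more in every library and 6 were below it in every library, among them the neural subunits Actl6b, Dpf1 and Dpf3. Actb, which is both a subunit and the main cytoskeletal actin, had 3954 ± 1179 TPM and Dpf2 had 46.0 ± 1.63 TPM. Of 14 other remodeller ATPases and ISWI partners, 12 reached 1 TPM in every library, led by Baz1a at 34.9 ± 6.54 TPM and Baz1b at 26.2 ± 4.23 TPM.

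Which paralog of a family dominates was compared within each library for 33 pairs, as the log2 ratio of TPM after adding 0.1 TPM. The same gene was higher in all 4 libraries for 29 pairs. With 4 libraries an exact sign-flip test cannot go below p = 0.125, so no pair was called. The 4 pairs that changed order were Hdac7/Hdac9, Kmt2c/Kmt2d, Kmt5b/Kmt5c and Chd1/Chd2. Hdac7/Hdac9 spanned -2.20 in replicate 1 to 0.67 in replicate 4, and Kmt5b/Kmt5c spanned 1.40 in replicate 1 to -0.53 in replicate 4. These ratios used the TPM of all transcripts of a gene, coding or not. In replicate 4 the 396-base retained-intron transcript Kmt5c-208 held 4.69 TPM, or 32.5% of the Kmt5c TPM, on 16.5 reads. The order there is therefore not read as an order of coding RNA. Nor is the order of Chd1/Chd2, since part of the Chd2 TPM lay on nonsense-mediated decay transcripts. Some pairs with a constant order were close in 1 library. Sirt3/Sirt5 was 0.06 in replicate 1 and 2.10 in replicate 2, Kdm2a/Kdm2b was 0.03 in replicate 1, and Hdac6/Hdac10 was 0.03 in replicate 1. The SD of Smarcd1/Smarcd2 was 0.07 and that of Kdm1a/Kdm1b 0.10, the 2 tightest ratios that involve no gene below 1 TPM.

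**Figure D2:**
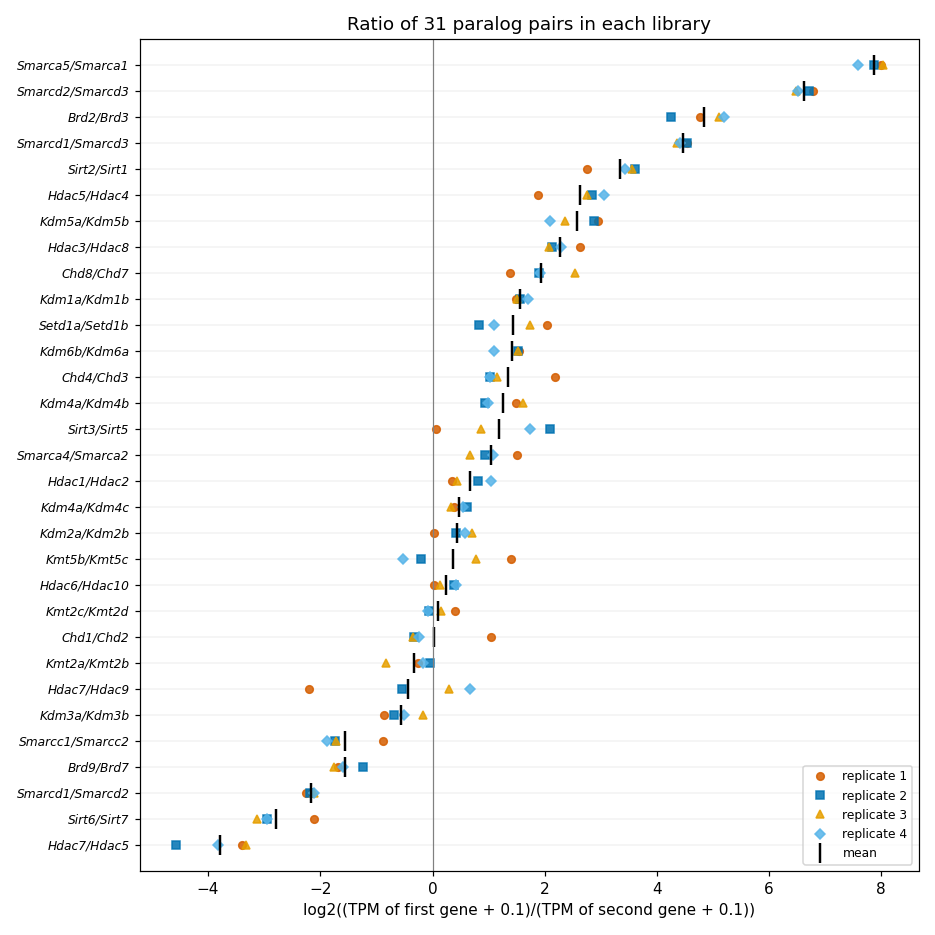
log2 ratio of TPM for 31 of the 33 paralog pairs, 1 symbol per library and a black bar for the mean, with the first gene of each pair higher to the right of 0. In 27 of the pairs drawn the 4 symbols lie on 1 side of 0; in Chd1/Chd2 and Hdac7/Hdac9 replicate 1 lies furthest from the others.

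To ask how evenly these genes were expressed among replicates, the rounded expected counts of each gene were set against counting noise with a chi-square test over the 4 libraries. A gene was called variable at a Benjamini-Hochberg adjusted p below 0.05 together with a range of at least 2-fold between the highest and lowest scaled count. Of the 81 genes, 77 had the mean count of 10 reads needed for the test, and Kdm4d, Brd3os, Chd5 and Smarca1 did not. In all, 69 of the 77 (89.6%) differed beyond counting noise, beside 88.6% of all 12626 genes tested. Of these, 9 (11.7% of the 77) also passed 2-fold, whereas 33.0% of all genes tested were called variable. Among protein-coding genes at 1 TPM or more in every library 23.3% were called, and 8 of the 73 genes here (11.0%). The median range was 1.43-fold for the 77 genes and 1.68-fold for all genes tested, and the median SD of log2 CPM was 0.19 against 0.27.

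**Figure D3:**
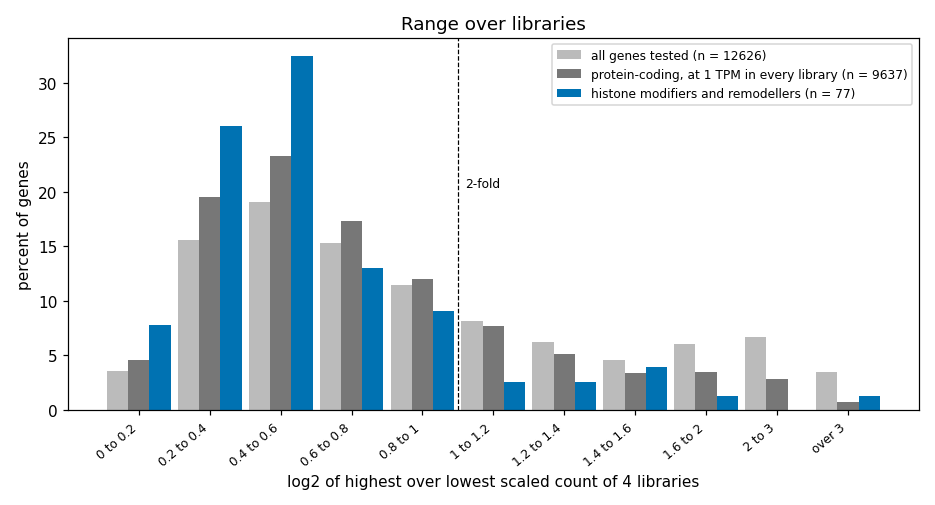
Percent of genes in each class of log2 range over the 4 libraries, for all genes tested, for protein-coding genes at 1 TPM or more in every library and for the 77 histone modifiers and remodellers, with a dashed line at 2-fold. The blue bars are taller than the grey ones up to 0.6 and shorter in most classes right of the line, where 9 of the 77 genes lie.

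The 9 variable genes were Kmt5c, Setd7, Setd1b, Setd4, Hdac4, Hdac9, Sirt3, Chd2 and Chd3. No demethylase, BET protein or SMARC gene was among them. Hdac9 had the widest range. It had 11.9 TPM in replicate 1 and 1.95, 1.5 and 1.21 TPM in replicates 2 to 4, from 769, 123, 161 and 125 reads. That is an 8.49-fold range of scaled counts (chi-square adjusted p = 4.31e-304), and replicate 1 stood apart (chr12:34047580-34917095, mm10, minus strand). Hdac4, in the same class, was also highest in replicate 1 with 7.42, 4.58, 2.83 and 3.46 TPM, a 2.11-fold range. Setd4 was highest there too, but rested on 12 to 26 reads per library.

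Chd3 and Chd2 went the other way in replicate 1. Chd3 counts were 1365, 3181, 4184 and 4777 reads, a 2.54-fold range after scaling (chi-square adjusted p = 3.27e-219). Chd2 had 8.34, 17.9, 17.8 and 13.8 TPM, a 2.19-fold range. In both genes replicate 1 was the low library and replicates 2 to 4 lay closer together.

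A further 4 genes split the libraries as replicates 2 and 4 over replicates 1 and 3. How many of all genes tested split this way was not counted, so the split is not read as particular to these 4. Kmt5c, which trimethylates H4 lysine 20 in heterochromatin, had 4.26, 13.7, 6.04 and 14.4 TPM, a 3.32-fold range (chi-square adjusted p = 4.23e-42). Setd7 had 5.78, 14.9, 8.03 and 11.2 TPM and Setd1b had 1.84, 4.15, 1.73 and 3.63 TPM, ranges of 2.67-fold and 2.30-fold. Sirt3 had 3.99, 10.5, 4.66 and 8.51 TPM, a 2.82-fold range. The interferon-stimulated gene list was high in the same 2 libraries, at 4636 and 4482 TPM in replicates 2 and 4 against 1569 and 1423 TPM in replicates 1 and 3, and the proliferation list was low in them. Kmt5a and Hdac2 ran opposite to these 4 genes but stayed under 2-fold, at 1.72-fold and 1.99-fold. Hdac2 was called variable when scaled by total counts and in the second quantification. The part of either list in these differences was not tested.

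Of the 9 genes, 3 were highest and 5 lowest in replicate 1. Among all 4167 variable genes 41.3% were highest and 35.4% lowest in it, so replicate 1 stood apart across the genome and not in these genes alone. Without replicate 1 the count fell to 3 genes, Kmt5c, Setd1b and Sirt3, while the share over all genes tested fell to 16.1%. Replicate 1 also had the highest summed proliferation genes, 1344 TPM against 313 to 644 TPM, and the highest share of ribosomal RNA gene counts, 12.4%. The part of either in the spread was not tested. Between replicates 3 and 4 alone, Setd1b was the only gene called, beside 9.81% of all genes tested.

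**Figure D4:**
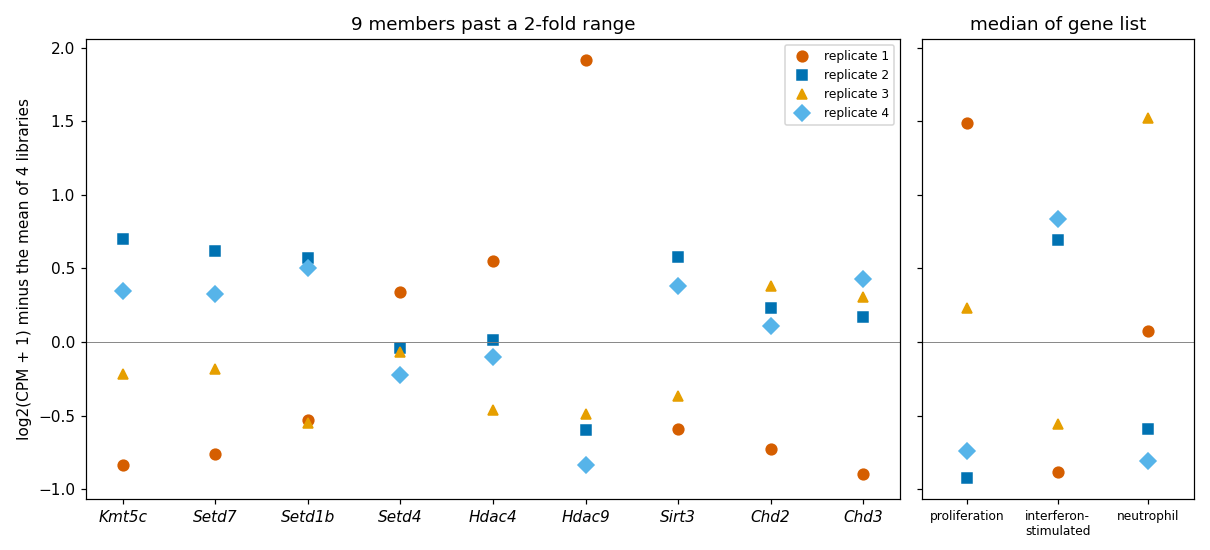
Deviation of log2(CPM + 1) from the mean of the 4 libraries for the 9 variable genes (left) and the median deviation of 3 gene lists (right), 1 symbol per library. Hdac9 in replicate 1 lies 1.92 above its mean; Kmt5c, Setd7, Setd1b and Sirt3 have replicates 2 and 4 above 0 and replicates 1 and 3 below it, as does the interferon-stimulated list.

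Partner genes of the same complexes gave 21 variable genes among 100 tested. The share was 33.0% of all genes tested and 23.3% of protein-coding genes at 1 TPM or more in every library. Of the 106 partners, 94 reached that level. Of the 21 variable partners, 16 were highest in replicate 1, beside 1720 of the 4167 variable genes overall. Among methyltransferases outside the name pattern 5 of 15 were called. Ezh2, the main H3 lysine 27 methylase, had 25.5, 9.52, 9.09 and 6.11 TPM, and Nsd2, an H3 lysine 36 dimethylase, had 28.3, 8.33, 8.70 and 8.75 TPM, both high in replicate 1. Ezh1, the less active paralog of Ezh2, was lowest there at 13.1 TPM and highest in replicate 4 at 24.4 TPM. Setdb2 and Suv39h2 were the other 2. The remodeller Hells had the widest range of the partners at 15.5-fold, with 13.1, 0.99, 1.96 and 0.92 TPM. Srcap and Ttf2 were also called among 13 remodeller partners tested.

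Elsewhere 2 of 9 MLL cofactors (Wdr5, Dpy30), 2 of 10 acetyltransferases (Hat1, Kat2a), 2 of 21 corepressor subunits (Rbbp7, Rcor2), 3 of 16 BAF and PBAF subunits tested (Actl6a, Bicra, Bcl11a), 2 of 7 JmjC proteins tested (Riox1, Riox2) and 2 of 9 elongation factors (Ell2, Hexim1) were called. Hexim1, the inhibitor of P-TEFb, had 19.8, 33.8, 13.4 and 27.2 TPM, and was thus high in replicates 2 and 4 with Kmt5c and Sirt3. Without replicate 1, 6 of the partners were called, beside 16.1% of all genes tested.

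Replicates 1 and 2 were each made from 6 sequence files and replicates 3 and 4 from 4, as listed in the deposit, and the genes were also counted by that division. Both of replicates 1 and 2 lay above both of replicates 3 and 4 in 7 genes (9.09%), beside 12.2% of all genes tested, and below them in 14 genes (18.2%), beside 12.3%. The balance was 8 against 16 with DESeq2 size factors and 13 against 16 with total counts, and turned to 16 against 10 in the second quantification, whose counts differ as well. The shares over all genes tested were not counted under these other settings, so no direction is read from the balance.

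The 250 bases before a transcription start are given for genes called variable with a mean of at least 2 TPM. For each gene the window nearest the start of its most abundant transcript was taken. It had to overlap annotated exons by no more than 30 bases. Windows came from RefSeq (GRCm38.p6, the assembly behind mm10), where 63 of the 81 genes had at least 1. Hdac9, Hdac4 and Kmt5c were the genes that met these conditions. Hdac9 and Hdac4 belong to 1 class and both were highest in replicate 1, while Kmt5c was highest in replicates 2 and 4. Each reads 5′ to 3′ on the gene's own strand, ending 1 base before the start. Capitals mark GC boxes (GGGCGG) in Hdac4 and an E2F motif (TTTGGCGC or TTTCCCGC) in Kmt5c, read on either strand.
Hdac9: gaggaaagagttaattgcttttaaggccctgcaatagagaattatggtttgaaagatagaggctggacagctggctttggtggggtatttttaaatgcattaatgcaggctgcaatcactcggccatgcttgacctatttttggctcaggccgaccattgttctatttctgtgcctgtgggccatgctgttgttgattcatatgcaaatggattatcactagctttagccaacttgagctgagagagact
Hdac4: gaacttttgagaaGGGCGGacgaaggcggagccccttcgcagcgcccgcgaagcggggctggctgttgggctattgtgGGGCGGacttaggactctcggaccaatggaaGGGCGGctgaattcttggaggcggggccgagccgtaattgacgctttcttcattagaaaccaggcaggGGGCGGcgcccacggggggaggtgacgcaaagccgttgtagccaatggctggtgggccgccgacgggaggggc
Kmt5c: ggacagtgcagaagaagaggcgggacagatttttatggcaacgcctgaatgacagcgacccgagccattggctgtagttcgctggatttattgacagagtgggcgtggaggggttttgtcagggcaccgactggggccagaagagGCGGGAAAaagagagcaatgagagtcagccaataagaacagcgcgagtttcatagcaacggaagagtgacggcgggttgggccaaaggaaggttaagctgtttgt

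The Hdac9 window lies at chr12:34528890-34529139 on the minus strand, 15 bases from the start of its most abundant transcript. That transcript held 67.2% ± 11.9 of the gene's TPM. The window lies inside the annotated span of the gene given above, downstream of the gene's outermost start. It held 2 CpG dinucleotides at 43.6% GC and no match to any motif searched. The Hdac4 window, chr1:92180342-92180591 on the minus strand, held 23 CpG dinucleotides at 65.2% GC and 4 GC boxes. The Kmt5c window, chr7:4739877-4740126 on the plus strand, lies 58 bases from the start of its most abundant transcript. It held 13 CpG dinucleotides at 53.6% GC and 1 E2F match. The windows shown for these 2 class IIa genes, both highest in replicate 1, thus differ in GC content and CpG number.

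Over all 32851 windows, 32.7% held a GC box, 1.30% an E2F match, 7.25% a kappa B match and 2.98% an interferon-stimulated response element, searched on both strands like the others. Over the 86 windows of the genes described here the shares were 67.4%, 4.65%, 11.6% and 1.16%. Their median window had 20 CpG dinucleotides and 62.6% GC, against 6 and 52.4% over all windows. A match is a match of letters, and none of these motifs overlapped another in the 3 windows shown.

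Whether the TPM of a gene reflects an mRNA that can make the protein was read from the transcript tables, for the 74 genes with a mean of at least 1 TPM. The most abundant transcript was annotated as protein coding in 70 of them. It was not in 4 (5.41%), beside 5.25% of protein-coding genes at that level: Chd9, Sirt1, Sirt4 and Setd4. A median of 94.8% of a gene's TPM lay on protein-coding transcripts, against 97.6% over all protein-coding genes at that level.

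Chd9 was the extreme case. Its 759-base processed transcript Chd9-206 held 86.6% ± 4.2 of the TPM. This transcript has 3 exons, with 214 bases in untranslated exons of coding transcripts, 545 outside any exon of them and 0 in coding exons. It was assigned 805, 496, 732 and 753 reads of the 2258, 2609, 2431 and 3007 reads of the gene. TPM divides reads by length, so the short transcript weighs more in TPM than in reads. Counting protein-coding transcripts only, Chd9 stood at 7.80 ± 1.45 TPM, below Chd8, and its TPM excess in replicate 1 (101 against 62.2 to 68.5 TPM) was not seen in its scaled counts, which ranged by 1.28-fold and were highest in replicate 2.

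Sirt1 was led by Sirt1-205, a transcript annotated for nonsense-mediated decay, with 45.9% ± 8.3 of the TPM against 36.2% ± 9.6 for its leading coding transcript. Those shares overlapped between libraries. Sirt4 was led by the retained-intron transcript Sirt4-203 with 43.3% ± 10.9, and its protein-coding transcripts came to 1.09 ± 0.05 TPM. Setd4, with 12 to 26 reads per library, had no stable leading transcript.

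Brd2 also carried much non-coding RNA. Protein-coding transcripts held 68.0% ± 4.5 of its TPM, nonsense-mediated decay transcripts 19.2% and retained-intron transcripts 11.8%, which left 165 ± 33.8 TPM still the highest mean of the 81 genes. In Brd7 coding transcripts held 54.9% ± 5.1, in Smarce1 71.5% ± 4.4 and in Chd3 72.9% ± 3.9. In Chd2 a 5289-base nonsense-mediated decay transcript held 40.3% ± 3.7, and 19.9% ± 9.1 in the second quantification. Sirt2, Chd4, Kdm6b, Setd3 and Smarcc2 had means of 87.7% or more.

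**Figure D5:**
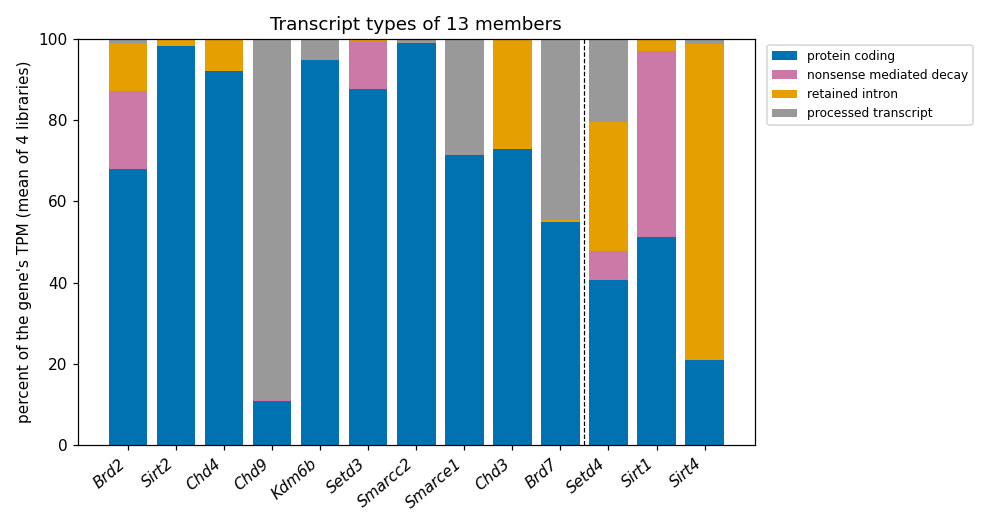
Percent of each gene's TPM on transcripts of 4 annotated types, mean of 4 libraries, for the 10 most abundant genes (left of the dashed line) and the other 3 genes whose leading transcript was not protein coding. Chd9 is almost all processed transcript and Sirt4 mostly retained intron, while Sirt2 and Smarcc2 are almost all protein coding.

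The second quantification in the deposit gave the same leading transcript for 69 of the 74 genes (93.2%), beside 91.5% of protein-coding genes at that level. It differed for Kdm6a, Kdm5a, Kdm5b, Kmt2d and Chd3. In Kdm5a the coding Kdm5a-201 and the 1295-base processed transcript Kdm5a-207 held 45.4% ± 2.2 and 45.0% ± 5.7. In Kmt2d a 899-base coding transcript, Kmt2d-204, held 52.2% ± 11.5 against 42.7% ± 11.6 for the 19823-base Kmt2d-201, although it was assigned 45 to 160 reads and the long one 1911 to 3284. In Chd3 the 430-base Chd3-207 held 35.5% ± 6.4 on 18 to 111 reads. In Kdm6a and Kdm5b each quantification led with a different coding transcript. Gene-level TPM in the second quantification was lower, with a median ratio of 0.80 over the 74 genes (0.61 to 1.00) and 0.78 over protein-coding genes at that level.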

How the data were processed

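RNA from 4 libraries of 1 group was described by deposited tables on mm10 with annotation M21, per the file headers and text lists. Tools, strand setting and sequencing depth beyond the tables were not given in the sources at hand. Per the file headers, the authors' gene and transcript tables hold expected counts, TPM, posterior mean TPM, interval bounds of TPM and isoform percent, and a second transcript table holds estimated counts and TPM. The deposited TPM interval bounds, a signal per gene, support no printed result. The deposited isoform percent was not used, since shares were computed from TPM. Expected counts were rounded to whole reads for tests and estimated counts summed to genes.

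Library sizes were scaled with TMM in edgeR 4.0.16. Counts were tested with a chi-square test (3 degrees of freedom) where the mean reached 10 reads per library, adjusted over all 12626 genes. DESeq2 1.42.0 size factors were an alternative. Posterior mean TPM, other thresholds, pseudocounts, left-out replicates and the second quantification were others, and counting protein-coding transcripts only and the mean of Hdac9 without each replicate were added after seeing the data. Genes named were, per class, up to 4 with the highest mean TPM and all below 1 TPM, all variable genes, all paralog pairs, the transcript cases and, per partner list, the 2 highest and all variable ones. Other genes of a class were named for completeness. Of the 81 genes, 1 is counted in the totals but is not reported here, nor are the 2 pairs that hold it. The members, lists and rules were chosen with earlier results of these data known.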

Additional observations from a re-analysis of the deposited data

Results flagged for a closer look

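Among 74 genes with a mean of at least 1 TPM, 10 had 1 library far from the other 3 by Dixon's test at 95%, which chance gives in about 1 of 20 groups. Replicate 1 was the outlying library in 7 of them. Over all 10220 protein-coding genes at that level 8.79% were past the same limit, beside 13.5% of the 74 genes. Replicate 1 was the outlying library in 73.2% of the protein-coding genes past it. The genes named next are among the 74. Replicate 1 was high for Hdac9 (11.9 TPM, the others 1.21 to 1.95), Chd9 (100.7 TPM, the others 62.2 to 68.5), Smarcc1 (29.5 TPM, the others 15.8 to 17.1) and Sirt5 (3.82 TPM, the others 2.38 to 2.53). It was low for Sirt2 (78.4 TPM, the others 132 to 137), Chd3 (22.1 TPM, the others 56.9 to 62.6) and Kdm4c (11.0 TPM, the others 11.7 to 11.8). Kdm6b was high in replicate 2 (81.9 TPM, the others 58.7 to 61.5), Kdm1a was high in replicate 4 (24.4 TPM, the others 18.0 to 18.9) and Chd6 was low in replicate 3 (4.34 TPM, the others 5.36 to 5.55). Chd6 differed by 1.18-fold in scaled counts.

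Of 33 paralog log2 ratios 4 stood apart in the same way. Replicate 1 was the outlying library for Smarcc1/Smarcc2 (-0.88, the others -1.89 to -1.72), Chd4/Chd3 (2.19, the others 1.02 to 1.16) and Chd1/Chd2 (1.04, the others -0.35 to -0.25), and replicate 4 for Kdm6b/Kdm6a (1.09, the others 1.52 to 1.54).

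Some genes matched the names but had no protein-coding transcript and entered no comparison. Summed over the 4 libraries, the antisense gene Kdm6bos had 53.2 reads and the pseudogenes Smarce1-ps1 and Smarca5-ps had 29.3 and 17.3 reads. The sources used here do not state whether counting used strand, so Kdm6bos reads cannot be told apart from Kdm6b reads. Whether the pseudogenes share reads with Smarce1 and Smarca5 was not tested.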

How the results depend on the processing

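The count of 73 genes at 1 TPM in every library stayed between 72 and 76 with the second quantification, posterior mean TPM, 0.5 TPM, protein-coding transcripts only and any 3 libraries, and was 55 at 5 TPM. The 9 variable genes became 26 at 1.5-fold (where 58.2% of all genes tested were called), 2 at 3-fold (16.1%), 6 with replicates 1 and 2 only (21.3%), 1 with replicates 3 and 4 only (9.81%) and 3 to 9 when 1 replicate was left out (16.1% to 29.2%). All 9 were called with DESeq2 size factors, total counts (10 called), no filter on low counts and the second quantification (11 called). Total counts added Hdac2, and the second quantification added Hdac2 and Brd3os. The median level of 12.5 TPM was 9.90 TPM in the second quantification and 12.4 to 13.0 TPM without 1 replicate. The count of genes with both of replicates 1 and 2 above replicates 3 and 4 was 7, and became 13 with total counts and 16 in the second quantification. The share over all genes tested was not counted under those settings. The 29 pairs of constant order were 26 to 30 under the other settings. Ratios changed sign for Hdac7/Hdac9 (0.14, and from -0.82 over the other replicates left out) and Chd1/Chd2 (-0.31, and up to 0.16 likewise) without replicate 1, for Kdm4a/Kdm4b (-0.25) and Chd1/Chd2 (-0.35) with posterior mean TPM, and for Kmt2a/Kmt2b (0.00395) with protein-coding transcripts only. The cause was not tested. No paired analysis was possible because there was 1 group. Levels of genes with few reads, such as Setd4, Kdm8 and Hdac11, are limited by depth.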
